A study of Mus musculus with 42 samples.

Results

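Long intergenic noncoding RNA (lincRNA) genes were examined across the cerebellum of mice on intermittent fasting. Members were chosen by their measured level: genes typed lincRNA in the deposited tables with a mean of at least 1 FPKM over the 30 RNA-seq libraries, FPKM being fragments scaled to gene length and to the library's total. Of 35275 genes in the tables, 2769 were typed lincRNA, 210 of these reached 1 FPKM, and 208 (7.51%) remained after the imprinted Meg3 and Mirg were left out. The level over all libraries chose the members, so that level is a description of them and was not tested. RNA was taken from flash-frozen cerebella of male C57BL/6 mice (C57/BL6NTac in the study's design), all fed ad libitum until 3 months of age and with no genotype or transgene distinguishing the groups. For the next 3 months one group stayed on ad libitum food (AL), one fasted for 16 h each day (IF16), and one fasted for 24 h on alternate days (EOD). A second set of groups went through the same regimens and then had free food for 2 months (AL-R, IF16-R and EOD-R). There were 5 libraries in each of the 6 groups. The labels number the libraries without stating how many mice stand behind each, so p-values measure the spread between these samples.

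LincRNAs are transcribed by RNA polymerase II, and most are capped, spliced and polyadenylated like mRNAs but hold no long conserved reading frame. Some stay in the nucleus, such as Malat1 in the speckles that store splicing factors and Neat1, the scaffold of paraspeckles. Others carry microRNA or small nucleolar RNA precursors that are cut out of the longer transcript, and many start back to back with a protein-coding gene from a shared promoter region. In brain, lincRNAs are known for being more restricted to particular cell types than mRNAs and for lying beside genes of developmental transcription factors. In whole tissue, fewer cells of a type and less RNA per cell cannot be told apart.

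Of the 208 members, 15 overlapped a microRNA hairpin of the RefSeq table (assembly GRCm38.p6) on the same strand. Together these hosts held 20 hairpins with 37 mature microRNAs of 31 different seeds. Their median level was 7.48 FPKM, against 2.87 FPKM for all 208 members. A set of 3 host genes carries the same microRNA, miR-9, a regulator of neural progenitors, and the mature sequences below show the seeds held by a choice of the hosts, with those that share a microRNA or a seed first. Capitals mark the seed, bases 2 to 8, and sequences run 5′ to 3′ as RefSeq gives them.
mmu-miR-9-5p: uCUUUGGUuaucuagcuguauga
mmu-miR-9-3p: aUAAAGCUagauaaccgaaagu
mmu-miR-29b-3p: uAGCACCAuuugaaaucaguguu
mmu-miR-29c-3p: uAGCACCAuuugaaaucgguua
mmu-miR-101a-3p: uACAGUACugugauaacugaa
mmu-let-7d-5p: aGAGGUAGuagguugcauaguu
mmu-miR-30c-5p: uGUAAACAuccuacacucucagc
mmu-miR-670-5p: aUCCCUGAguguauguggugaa
mmu-miR-135a-5p: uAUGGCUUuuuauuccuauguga

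The miR-9-5p sequence lay in Gm3764 (chr3:88215613-88215635, plus strand), in C130071C03Rik (chr13:83738821-83738843, plus strand) and in AI854517 (chr7:79505279-79505301, plus strand). These hosts had mean levels of 60.0, 20.3 and 8.42 FPKM over the 30 libraries. A330023F24Rik, at 21.3 FPKM, held miR-29b-3p (chr1:195037091-195037113, plus strand) and miR-29c-3p (chr1:195037600-195037621, plus strand), which share 1 seed. E130102H24Rik, at 19.7 FPKM, held miR-101a-3p (chr4:101346957-101346977, minus strand). The let-7d-5p sequence (chr13:48536078-48536099, minus strand), of the let-7 family of differentiation-linked microRNAs, lay in 6720427I07Rik, at 6.96 FPKM. Gm27028, at 1.97 FPKM, held miR-30c-5p (chr1:23291714-23291736, plus strand). E530001K10Rik, which RefSeq names as the miR-670 host gene, was at 13.1 FPKM and held miR-670-5p (chr2:94261358-94261379, minus strand). Rmst, a regulator of neurogenesis that binds Sox2, was at 1.05 FPKM and held miR-135a-5p (chr10:92072141-92072163, minus strand). A930011O12Rik, which the gene names table gives as a miR-124 host gene, was the second most abundant member; no hairpin of the RefSeq table was matched to it, so it is not among the 15 hosts or in their median. None of these values says how much mature microRNA was present, which RNA-seq of long transcripts does not measure.

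Promoters were taken from RefSeq (GRCm38.p6) as the 250 bases before to 50 bases after a gene's start. The table named 106 members, and for 93 of them its start lay within 1 kb of the start in the deposited files. These 93 promoters had a median GC content of 59.7% and a median ratio of observed to expected CpG of 0.752. Over the 11586 lncRNA promoters of the table the medians were 48.3% and 0.245, and over the 21255 protein-coding promoters they were 56.3% and 0.567. A CpG ratio above 0.6 was found in 62 of the 93 (66.7%), against 14.0% of the lncRNA and 47.6% of the coding promoters. As a class, the expressed lincRNA promoters lay closer to coding promoters than to the typical lncRNA promoter of the table in base composition; the members were chosen for being expressed, and the other promoters were not.

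A set of 6 short motifs was searched on both strands in the same 300 bases. TGACGTCA, the full cAMP response element that CREB proteins bind, was in 7 of the 93 (7.53%), against 1.79% of all 32841 promoters. Its share was 2.23% of the coding and 0.975% of the lncRNA promoters. The motif holds a CpG, and the part of the members' higher CpG ratio in its share was not tested. Again beside all promoters, TATAAA was in 9 (9.68%) against 13.6%. CACGTG, the E-box of clock and Myc proteins, was in 8 (8.60%) against 7.15%. CCGGAAGT, the core of ETS-family sites, was in 6 (6.45%) against 3.89%. The full NRF1 palindrome was in 1 (1.08%) against 0.971%, and the full glucocorticoid receptor palindrome was in 0 against 0.00913%. The 7 promoters with TGACGTCA belonged to AI854517, 1300002E11Rik, B230354K17Rik, C030037D09Rik, Gm10687, RP23-190H11.5 and 4933417D19Rik. The sequences of 3 promoters are printed to show the range: a CpG-rich microRNA host promoter, a CpG-rich promoter with 2 of the motifs 132 bases from the coding gene Msi2, and a CpG-poor promoter with none. Capitals mark TGACGTCA or CACGTG.
AI854517 (chr7:79499776-79500075, plus strand): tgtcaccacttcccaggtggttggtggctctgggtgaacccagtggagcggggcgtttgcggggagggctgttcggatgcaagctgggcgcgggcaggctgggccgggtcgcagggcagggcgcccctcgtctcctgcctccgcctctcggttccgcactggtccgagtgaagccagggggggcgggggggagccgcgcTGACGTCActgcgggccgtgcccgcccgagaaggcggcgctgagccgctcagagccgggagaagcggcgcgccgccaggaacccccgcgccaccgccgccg
C030037D09Rik (chr11:88718393-88718692, plus strand): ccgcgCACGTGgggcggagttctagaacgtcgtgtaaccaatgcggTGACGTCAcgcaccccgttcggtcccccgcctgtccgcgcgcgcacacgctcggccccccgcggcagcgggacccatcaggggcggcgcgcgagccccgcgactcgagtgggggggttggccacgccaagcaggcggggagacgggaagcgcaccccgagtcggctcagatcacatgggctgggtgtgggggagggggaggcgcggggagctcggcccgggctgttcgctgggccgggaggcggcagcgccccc
Gm15083 (chr6:114004506-114004805, plus strand): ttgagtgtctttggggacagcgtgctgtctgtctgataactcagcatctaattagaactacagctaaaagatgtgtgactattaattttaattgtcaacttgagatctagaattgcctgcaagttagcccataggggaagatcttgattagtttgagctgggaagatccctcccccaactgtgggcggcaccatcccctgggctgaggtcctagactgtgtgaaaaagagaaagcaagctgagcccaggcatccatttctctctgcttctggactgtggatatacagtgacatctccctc
Their CpG ratios were 0.840, 0.988 and 0.123 in the order printed. A match describes these letters only, and the study's files hold no measure of binding at these sites.

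The levels of the 208 members were low and unevenly spread. Levels exceeded 100 FPKM in 3 members, 30 lay between 10 and 100, 26 between 5 and 10, 76 between 2 and 5, and 73 between 1 and 2. The median member was at 2.87 FPKM, while the median of the 12256 protein-coding genes with at least 1 FPKM was 10.6 FPKM. The top 3 members held 30.6% and the top 15 held 57.2% of the summed mean FPKM. At the threshold, 4933417D19Rik (1.01 FPKM) and Gm26840 (1.004 FPKM) were just inside, and Gm26881 (0.997 FPKM) and Gm16596 (0.986 FPKM) were just outside. No member was at 0 in any library, although 60 of the 208 were under 1 FPKM in at least 1 library, and 1043 of the 2769 lincRNA genes were at 0 in all 30. Members were also shorter than coding genes, with a median gene length of 1679 bases against 3214.5 bases.

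**Figure D1:**
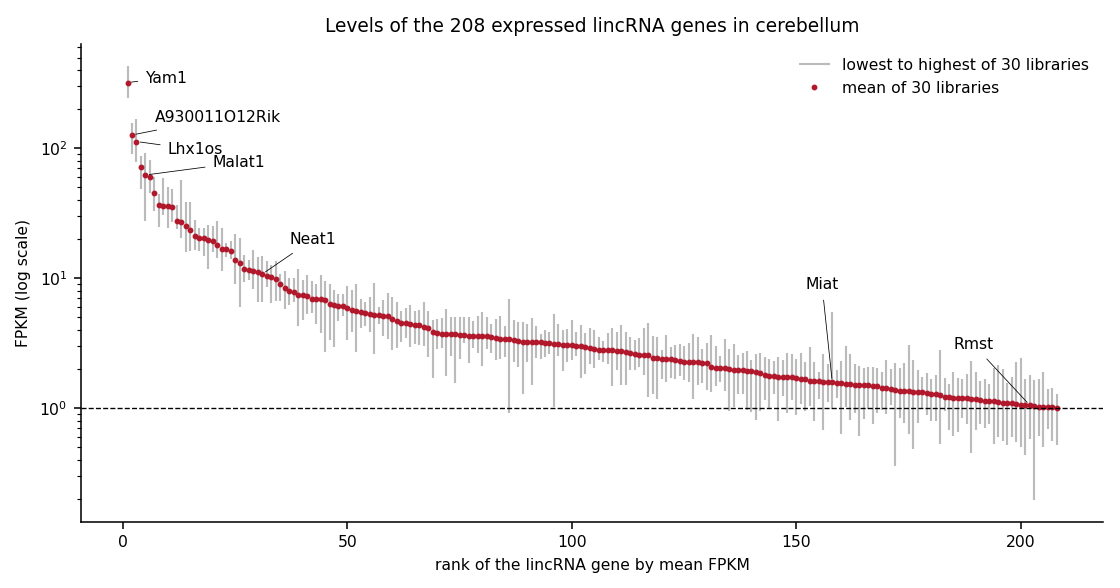
Mean FPKM of each of the 208 members over the 30 libraries (log axis), ordered by rank, with lines from the lowest to the highest library. Yam1, at 322 FPKM, stands above all other members, and 73 members lie between 1 and 2 FPKM.

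The most abundant member was Yam1, with a mean of 322 FPKM (chr17:39846958-39848788, plus strand, as in the deposited tables built on mm10). RefSeq places Rn18s-rs5, a pseudogene of 18S ribosomal RNA, at chr17:39846354-39848202 and the lncRNA AY036118 at chr17:39848112-39898385, so both overlap it. Reads of ribosomal RNA or of its copies and reads of Yam1 cannot be told apart in these counts. Its FPKM in the 5 AL libraries was 323, 275, 304, 305 and 343. The IF16 libraries had 393, 434, 293, 313 and 299 FPKM and the EOD libraries 347, 362, 293, 284 and 274 FPKM. All 3 groups overlapped, and the highest values were those of 2 IF16 libraries.

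A930011O12Rik followed at 127 FPKM (chr14:64587331-64593961, plus strand). Lhx1os was at 113 FPKM (chr11:84525660-84535831, plus strand) and started 125 bases from, and divergent to, Lhx1, which encodes a LIM homeodomain factor of Purkinje cells. 1700020I14Rik was at 72.0 FPKM (chr2:119594297-119607502, plus strand). RefSeq names it Oip5os1, and it is also known as Cyrano, the lncRNA that triggers decay of miR-7. Malat1 was at 62.3 FPKM (chr19:5795690-5802672, minus strand), and Gm3764, a miR-9 host, at 60.0 FPKM (chr3:88206813-88229959, plus strand).

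The next of the 15 most abundant members mostly lay beside or across coding genes. AI480526 (45.1 FPKM) started 527 bases from, and divergent to, Setd1b, which encodes a histone H3 lysine 4 methyltransferase. Gm2694 (36.7 FPKM, chr8:87472812-87525554, plus strand) started 220 bases from Cbln1, the gene of the granule cell protein that organizes synapses onto Purkinje cells. 9530082P21Rik (36.2 FPKM) overlapped Kremen2 on the other strand, and A830039N20Rik (35.1 FPKM) overlapped Kcnma1, the BK potassium channel gene, on the same strand. Gm27032 was at 35.9 FPKM, C330006A16Rik at 27.8 FPKM, 2810008D09Rik (RefSeq Snhg20) at 25.3 FPKM and RP24-69I6.1 at 23.4 FPKM. 6330403K07Rik (27.3 FPKM, chr11:71031941-71033513, minus strand) is typed as protein coding in RefSeq, so its place among noncoding genes is the deposited table's.

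Most members lay beside or across a coding gene. Of the 208, 11 overlapped a coding gene on their own strand, 41 on the other strand only, 85 lay within 5 kb of one and 71 farther away. A head-to-head start within 1 kb of a coding gene was found for 64 members, and 17 without a same-strand overlap began within 5 kb downstream of one on its strand. Since the use of strand in counting is not given in the sources used here, reads of members that overlap a coding gene and reads of that gene may be mixed. Median levels were 2.64, 1.73, 3.10 and 3.22 FPKM in the 4 classes, in the order given. The head-to-head members had a median of 2.60 FPKM. Of the 142 members matched to RefSeq, 129 were typed there as lncRNA, 9 as protein coding, 3 as transcribed pseudogenes and 1 as a pseudogene.

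Neighbours within 15 kb of each other formed 7 groups that held 15 of the members. Gm2694 and Gm27016 lay together on chromosome 8. On chromosome 13 the miR-9 host C130071C03Rik was followed by RP23-392G15.1, and on chromosome 7 RP23-402K24.5, RP23-402K24.6 and RP23-402K24.7 lay in a row. Neighbours of this kind may be parts of 1 transcript in another annotation. Each is still counted as a separate member in the counts given here, so these counts may hold a transcript more than once.

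Members with established roles were spread over the whole range of levels. Neat1 was at 10.7 FPKM (chr19:5824708-5845478, minus strand) and was the longest member, at 20771 bases. The small nucleolar RNA hosts, whose introns release guides for ribosomal RNA modification, were at 13.8 FPKM for Snhg12, 11.1 for Snhg6, 5.92 for Snhg1, 3.43 for Snhg7, 2.02 for Snhg4 and 1.33 for Snhg18. Miat, a nuclear lncRNA of neurons, was at 1.58 FPKM. Pou3f3os (RefSeq Pantr1), which starts 926 bases from the neural transcription factor gene Pou3f3, was at 3.03 FPKM. Neat1 in AL was at 13.0, 14.3, 12.3, 12.6 and 11.9 FPKM, and in EOD at 11.97, 10.04, 11.2, 6.51 and 10.3 FPKM. Most EOD libraries thus lay below AL, and 1 EOD library was far below the rest.

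Depth was alike in all groups, with 26799825 to 36167435 counted fragments per library. The 208 members took 0.416% to 0.523% of the counts of a library, Yam1 alone 0.0445% to 0.0795% and Malat1 0.0191% to 0.0648%. Markers of the labelled tissue were high: granule cell markers averaged 8.69 to 9.0 and Purkinje cell markers 8.38 to 8.73 log2 CPM (CPM being counts scaled to the library's total), while forebrain markers averaged -2.15 to -1.06 log2 CPM. Choroid plexus markers, from a neighbouring tissue, ranged from 0.20 to 4.82 log2 CPM over the libraries at the end of the regimens and from -0.15 to 4.39 after refeeding. Libraries also differed in the slope of expression on gene length: on the joint scale it ran from -0.187 to 0.016 log2 CPM per doubling of length in AL and from 0.013 to 0.033 in AL-R. This slope is called the length gradient below. Within groups the median biological coefficient of variation of the members was 15.3% at the end of the regimens and 11.3% after refeeding, against 13.0% and 7.32% for all genes tested.

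**Figure D2:**
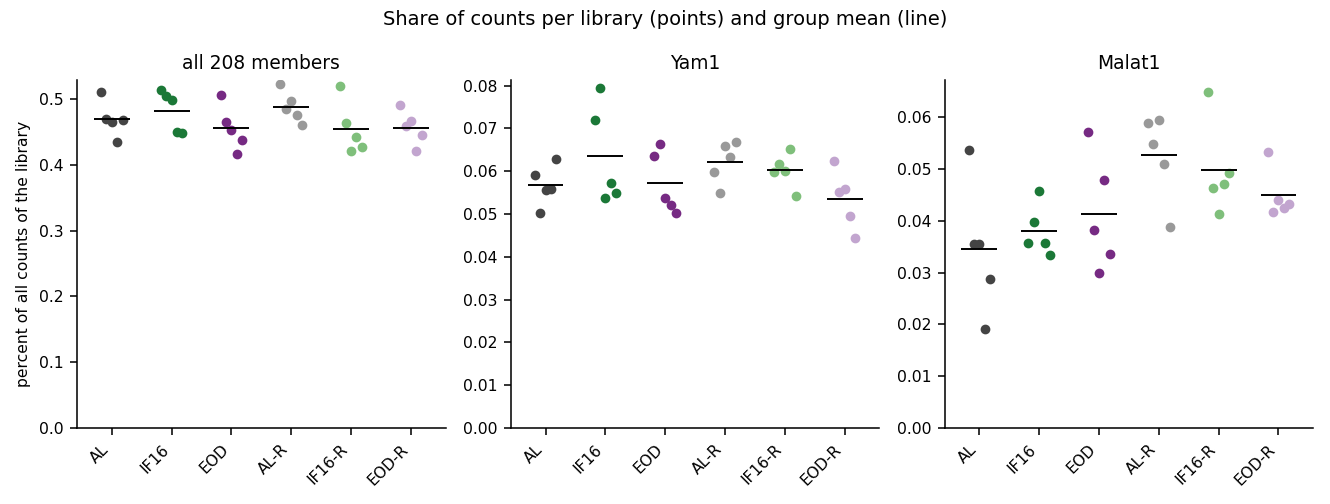
Percent of counted fragments per library taken by the 208 members together, by Yam1 and by Malat1, with 1 point per library and a line at each group's mean. The members' share stays between 0.416% and 0.523%, and the 6 groups overlap.

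Across the 30 libraries the highest value of a member was typically 2.14 times its lowest (median), and the ratio ran from 1.29 to 8.42. Between groups the spread was smaller: the highest group mean was a median of 1.32 times the lowest. A ratio of 2 between group means was reached by 4 members, which are named here after their values were seen. They were Gm15906 (2.42, AL-R over IF16), the Y-linked RP24-540G19.3 (2.23, AL over EOD-R), Gm2018 (2.05, AL-R over IF16) and Gm5914 (2.04, EOD over IF16-R). The highest group mean fell in AL for 63 members, IF16 for 56, AL-R for 46, IF16-R for 19, EOD-R for 19 and EOD for 5. These are means of FPKM without normalization between libraries. The same counts over all genes were not taken, so they cannot be read as a trait of the members.

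The first question of the design was whether either regimen changed transcripts while it ran. In edgeR's quasi-likelihood test with Benjamini-Hochberg adjustment over all 16577 genes tested, no member passed an adjusted p of 0.05 in IF16 against AL, where 0.0483% of all genes did. At an unadjusted p under 0.05 there were 22 members (14 higher and 8 lower), which is 10.6% of the members beside 9.92% of all genes. DESeq2 called 1 member, beside 0.587% of all genes. The edgeR count at an unadjusted p under 0.05 was 13 members without IF16 replicate 3, beside 1008 of 16670 genes. It was 14 without IF16 replicate 5, beside 1166 of 16658. The count rose to 26 without AL replicate 1, beside 2782 of 16650 genes. With the length gradient as a covariate it was 30, beside 2355 of 16577. The median log2 fold change of the members was 0.01, and 111 of the 208 were above 0; without IF16 replicate 1 the median was -0.035. With a median standard error of 0.15 on the log2 scale, even a difference somewhat above 1.5-fold could go uncalled. Only 4 members had an estimate beyond 1.5-fold in either direction, and edgeR called none of them. The largest of these estimates was a log2 fold change of 0.74, with an adjusted p of 0.103.

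RP23-392G15.1 had the smallest p in IF16 against AL. This transcript of a mean 1.53 FPKM (chr13:83891208-83928710, plus strand) lies downstream of the miR-9 host C130071C03Rik, and its nearest coding gene, Mef2c, a transcription factor gene of neurons, is 224129 bases away. Its FPKM was 1.29, 1.28, 1.37, 1.36 and 1.28 in AL and 3.02, 1.99, 1.94, 2.06 and 2.09 in IF16. Every IF16 library lay above every AL library, and 1 IF16 library was far above the others. The EOD libraries, at 1.79, 1.96, 1.48, 1.30 and 1.51 FPKM, lay between the groups or overlapped them. The log2 fold change of IF16 against AL was 0.74 (SE 0.15) with an adjusted p of 0.103 in edgeR, and DESeq2 gave 0.75 with an adjusted p of 0.00702. With the length gradient as a covariate edgeR gave 0.79 with an adjusted p of 0.023. The host C130071C03Rik upstream was at a log2 fold change of 0.21 (SE 0.101, adjusted p = 0.512 in edgeR).

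The libraries of IF16 and AL did not overlap in TMM-scaled CPM for 2 members, beside 1.55% of all genes: RP23-392G15.1 and Gm14033, the second named after its values were seen. Among members lower in IF16 the smallest p was that of C030037D09Rik, whose CpG-rich promoter is printed above. It was at 2.58, 2.80, 2.64, 2.60 and 2.62 FPKM in AL and at 2.06, 2.22, 2.63, 2.31 and 2.18 FPKM in IF16. One IF16 library reached the AL range, and the log2 fold change was -0.23 (SE 0.08, adjusted p = 0.404 in edgeR).

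In EOD against AL, a comparison that uses the same AL libraries, no member was called by edgeR, beside 0.0664% of all genes. An unadjusted p under 0.05 was found for 32 members, 30 lower and 2 higher in EOD, beside 14.4% of all genes at that p. There were 17 at that p without EOD replicate 2, beside 1534 of 16691 genes, and 18 without AL replicate 5, beside 1441 of 16695. Without EOD replicate 4 there were 21, beside 1535 of 16669. The count rose to 41 without AL replicate 1, beside 4181 of 16650 genes. With the choroid plexus markers as a covariate it was 38, beside 3779 of 16577. DESeq2 called 1 member, beside 0.812% of all genes. The median log2 fold change was -0.06, against -0.02 for all genes tested, and 136 of the 208 members were below 0. With the length gradient as a covariate that median was -0.04, and without EOD replicate 4 it was -0.02, with 90 members above 0. This EOD library had the highest length gradient, 0.139 on the scale of its table, and was also the lowest of its group in Neat1, Snhg1, Snhg4, Snhg6 and Snhg12. The part of the gradient in those values was not tested.

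D230017M19Rik had the smallest p in EOD against AL (mean 2.95 FPKM, chr1:72236465-72274869, plus strand). It overlaps, on the other strand, Pecr, the gene of a peroxisomal enoyl-CoA reductase of fatty acid elongation. AL libraries had 3.15, 3.04, 3.24, 2.98 and 3.04 FPKM, and EOD libraries 2.71, 2.33, 2.42, 1.83 and 2.58 FPKM. All EOD libraries lay below all AL libraries. The IF16 values of 2.80, 3.05, 2.92, 3.06 and 2.81 FPKM also lay above every EOD library. The log2 fold change was -0.37 (SE 0.09) with an adjusted p of 0.175 in edgeR and 0.0152 in DESeq2. Pecr itself was at -0.31 with an adjusted p of 0.358, and without strand the reads of the pair may be mixed.

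EOD and AL libraries did not overlap in TMM-scaled CPM for 8 members, beside 2.9% of all genes, and all 8 were lower in EOD. Besides D230017M19Rik these included Neat1 (log2 fold change -0.35, adjusted p = 0.325 in edgeR) and RP24-540G19.3 (-0.74, adjusted p = 0.259). RP24-540G19.3 lies on chromosome Y, 19546 bases from Eif2s3y, and its AL libraries were at 4.77, 4.37, 5.94, 6.03 and 5.17 FPKM. The EOD libraries were at 3.02, 3.90, 3.74, 1.93 and 3.06 FPKM, all below AL. Among the few members higher in EOD, D930016D06Rik had the smallest p, with a log2 fold change of 0.20 and an adjusted p of 0.314; RefSeq types it as the protein-coding gene Thoc2l.

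Between the regimens, edgeR's test of EOD against IF16 called no member and 0% of all genes. At an unadjusted p under 0.05 there were 13 members, 5 higher and 8 lower in EOD, beside 3.62% of all genes, and DESeq2 called 0 members, beside 0.004% of all genes. The median log2 fold change of the members was -0.11 beside 0.00 for all genes, with 152 of 208 below 0, and it was -0.08 with the length gradient as a covariate. Without IF16 replicate 1 the median was -0.06, and without EOD replicate 4 it was -0.07. Group libraries did not overlap for 3 members, beside 0.688% of all genes, and these were 2210008F06Rik, D230017M19Rik and Gm2018, the last named after its values were seen. 2210008F06Rik, which starts 176 bases from Ankrd13b, was at 2.10, 2.45, 1.501, 2.67 and 2.10 FPKM in IF16. Its EOD values were 2.90, 2.86, 2.93, 3.05 and 3.12 FPKM, all above IF16. EOD stood above IF16 by a log2 fold change of 0.48 (SE 0.13, adjusted p = 0.977 in edgeR).

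After 2 months of free food, IF16-R was compared with AL-R in a fit of 16444 genes. No member was called by edgeR, beside 0.17% of all genes, and DESeq2 called 1, beside 0.68% of all genes. An unadjusted p under 0.05 was found for 30 members, 25 lower and 5 higher in IF16-R, beside 9.58% of all genes. With the length gradient as a covariate it was found for 7, beside 684 of 16444 genes. The members' median log2 fold change was -0.08, with 148 of 208 below 0, and it was 0.01 with the length gradient as a covariate, so its sign turned. On the joint scale the length gradient was 0.043 to 0.079 in IF16-R and 0.013 to 0.033 in AL-R, with no overlap. The median was -0.04 without AL-R replicate 1 and -0.05 without IF16-R replicate 5. Of 10 astrocyte markers 2 were called higher in IF16-R, and their part in the members' values was not tested. Leaving out 1 IF16-R library, replicate 1, gave 47 members at an unadjusted p under 0.05, beside 2580 of 16510 genes. It also gave 6 called members, all lower in IF16-R, beside 65 called genes. The 6 were Gm17388, Gm15906 and Gm14827, the miR-9 host Gm3764 (log2 fold change -0.39, adjusted p = 0.0292 in edgeR), the let-7d host 6720427I07Rik (-0.42, adjusted p = 0.0363) and A930011O12Rik (-0.37, adjusted p = 0.0431). With all libraries and a block for replicate number, edgeR called 4 members, all lower in IF16-R, beside 95 of the 16444 genes. They were Fam120aos, Gm15906, 6720427I07Rik and Gm14827.

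Gm17388 (mean 3.23 FPKM, chr4:136355774-136359440, plus strand) had the smallest p. It was at 3.07, 3.73, 3.46, 3.43 and 3.53 FPKM in AL-R and at 2.99, 2.55, 2.36, 2.59 and 2.38 FPKM in IF16-R. All IF16-R libraries lay below all AL-R libraries, the nearest by a small margin. The log2 fold change was -0.40 (SE 0.09) with an adjusted p of 0.0877 in edgeR and 0.0175 in DESeq2. At the end of the regimen the same gene was at 3.62, 4.43, 3.84, 3.25 and 3.23 FPKM in IF16 and at 2.71, 3.47, 2.93, 3.05 and 3.93 FPKM in AL, with overlapping groups.

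Libraries of IF16-R and AL-R did not overlap for 4 members, beside 2.18% of all genes: Gm17388, Gm15906, A330094K24Rik and 1110054M08Rik, the last named after its values were seen. Gm15906, which lies 89 bases from Fndc5, the gene of the irisin precursor, was at 5.04, 4.76, 4.76, 4.86 and 3.96 FPKM in AL-R. Its IF16-R values were 3.76, 2.65, 2.04, 2.77 and 2.61 FPKM, all lower, for a log2 fold change of -0.74 (adjusted p = 0.0961 in edgeR). A330094K24Rik was the member with the smallest p among those higher in IF16-R, at 1.28, 1.62, 1.43, 1.36 and 1.62 FPKM in AL-R and 1.89, 1.81, 1.93, 1.68 and 1.80 FPKM in IF16-R. Its log2 fold change was 0.33 (adjusted p = 0.35 in edgeR).

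EOD-R against AL-R, with the same AL-R libraries, gave no called member in edgeR, beside 0.0426% of all genes, and 1 in DESeq2, beside 0.544%. The unadjusted p was under 0.05 for 20 members, 11 higher and 9 lower, beside 8.5% of all genes. Without AL-R replicate 1 it was so for 12, beside 1164 of 16504 genes. In a fit of the 2 groups alone it was so for 28, beside 1465 of 16168. The member with the smallest p was Gm15083 (mean 3.58 FPKM, chr6:114004789-114052108, plus strand), which overlaps, on the other strand, Atp2b2, the gene of the plasma membrane calcium pump of Purkinje cells. It was at 2.12, 2.69, 2.66, 3.63 and 2.68 FPKM in AL-R and at 3.67, 4.50, 3.78, 4.57 and 4.22 FPKM in EOD-R. Every EOD-R library lay above every AL-R library, although the highest AL-R value nearly reached the lowest EOD-R one. The log2 fold change was 0.59 (SE 0.13) with an adjusted p of 0.171 in edgeR and 0.00757 in DESeq2. With a block for replicate number edgeR called 2 members, beside 45 of 16444 genes. They were Gm15083, higher in EOD-R, and Miat, lower.

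No overlap between EOD-R and AL-R libraries was found for 5 members, beside 1.87% of all genes: Gm15083, Snhg12, 2410004N09Rik and Gm26910, all higher, and Gm27032, lower; 2410004N09Rik and Gm26910 are named after their values were seen. Among members lower in EOD-R the smallest p was that of Yam1. It was at 326, 300.3, 360.4, 346 and 364 FPKM in AL-R and at 341, 302, 306, 271 and 243 FPKM in EOD-R. The groups overlapped, and the log2 fold change was -0.21 (SE 0.07, adjusted p = 0.413 in edgeR).

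**Figure D3:**
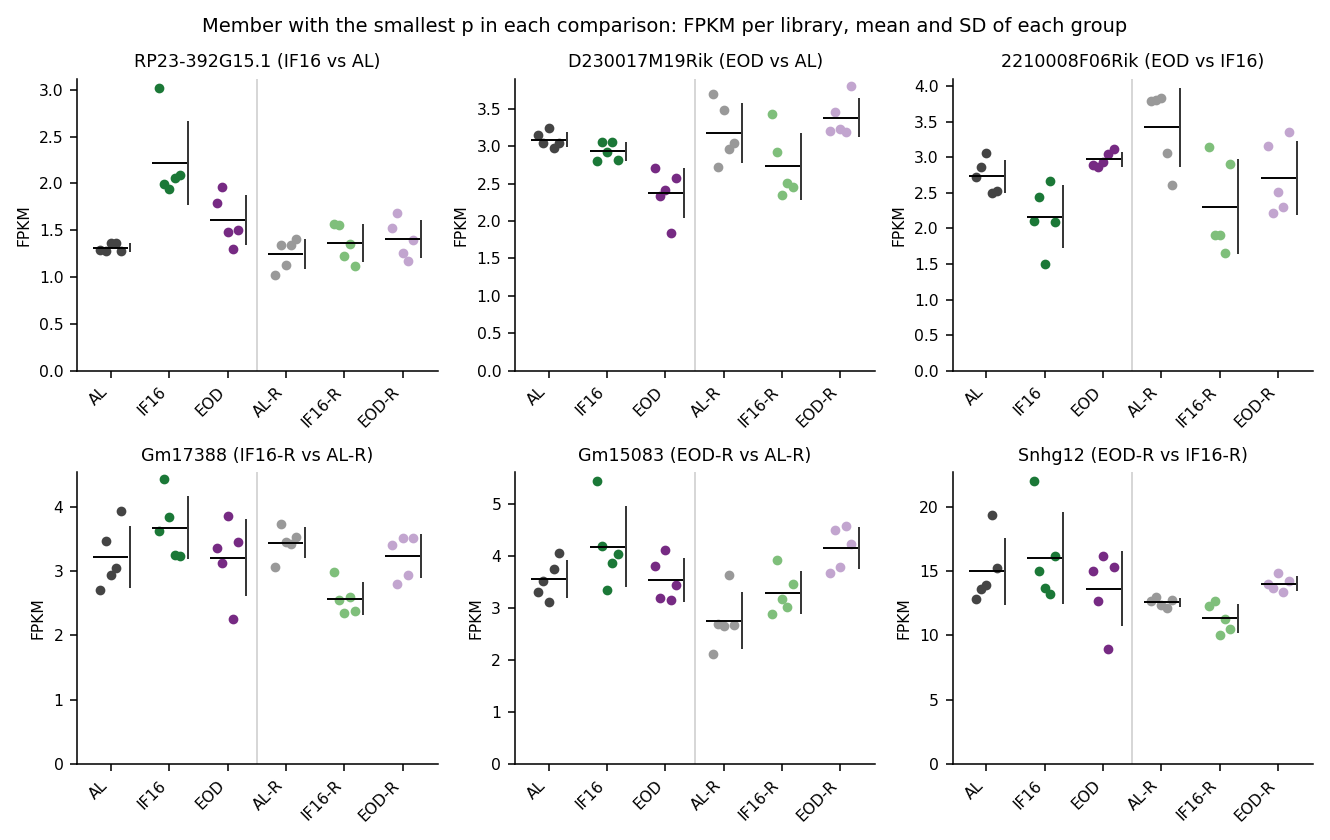
FPKM per library in the 6 groups for RP23-392G15.1, D230017M19Rik, 2210008F06Rik, Gm17388, Gm15083 and Snhg12, the members with the smallest p in the 6 comparisons within a table, with the mean and SD of 5 libraries. Every pair of groups that chose a member is separated in its panel, for example 1.94 to 3.02 in IF16 against 1.28 to 1.37 in AL for RP23-392G15.1.

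The refed regimens were also set against each other. In EOD-R against IF16-R edgeR called no member, beside 0.0182% of all genes. DESeq2 called 0, beside 1.59% of the 7488 genes to which it gave an adjusted p. The unadjusted p was under 0.05 for 22 members, 18 higher and 4 lower in EOD-R, beside 9.75% of all genes. Snhg12, a small nucleolar RNA host (chr4:132308678-132311024, plus strand), had the smallest p. Its IF16-R values were 12.3, 12.7, 10.1, 11.2 and 10.5 FPKM and its EOD-R values 14.0, 13.7, 14.9, 13.3 and 14.2 FPKM, with no overlap. This amounted to a log2 fold change of 0.29 (SE 0.06, adjusted p = 0.131 in edgeR). The libraries did not overlap for 3 members, beside 1.26% of all genes: Snhg12, 2410004N09Rik (log2 fold change 0.34) and Gm5083 (0.20), the last pair named after their values were seen. Among members lower in EOD-R, 2310069G16Rik had the smallest p, with a log2 fold change of -0.39 and an adjusted p of 0.363. With a block for replicate number edgeR called 0 members, beside 40 of 16444 genes. The median of all members was 0.03, and -0.04 with the length gradient as a covariate; it was 0.01 without IF16-R replicate 5 and 0.08 without IF16-R replicate 1.

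**Figure D4:**
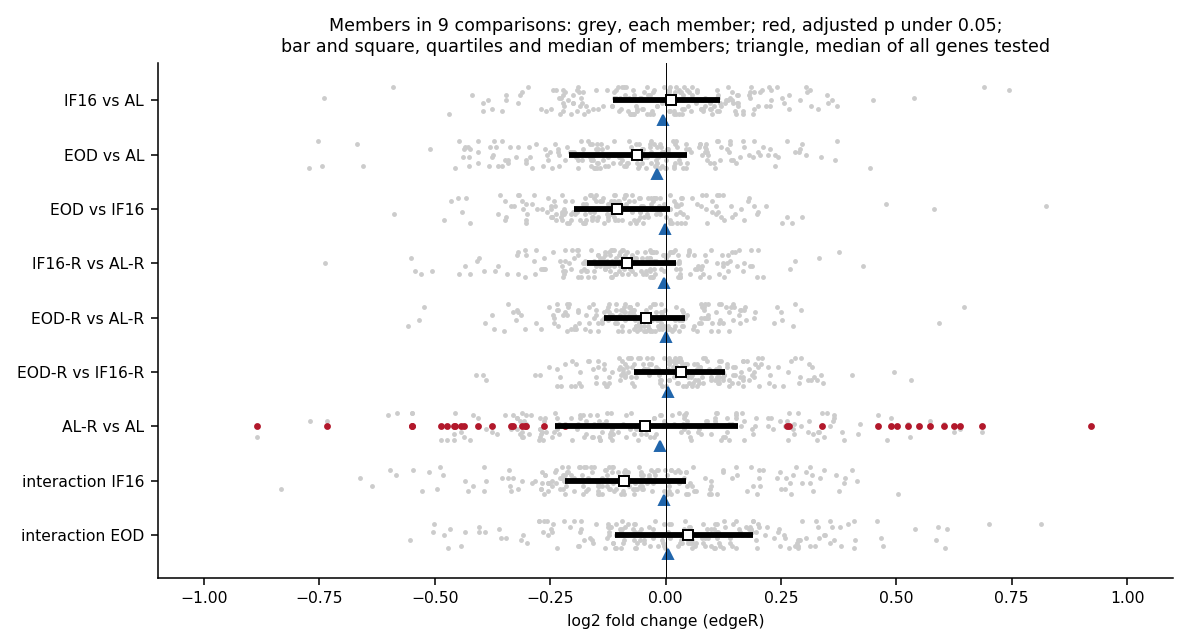
Log2 fold change of each of the 208 members in the 9 comparisons, with called members in red, the members' median and quartiles as square and bar, and the median of all genes tested as a triangle. Called members appear in AL-R against AL alone, and no member passes 1 on the log2 scale in any of the 9 comparisons.

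Whether refeeding altered a regimen's difference from its control was tested by the interaction in a fit of all 30 libraries and 16877 genes. No member was called by edgeR for IF16, beside 0.0474% of all genes, or for EOD, beside 0.0119%, and DESeq2 called 0 members in both, beside 0.161% and 0.102% of all genes. Unadjusted p-values under 0.05 were found for 19 members for IF16 (2 higher and 17 lower), beside 7.21% of all genes. For EOD they were found for 12 members (8 higher and 4 lower), beside 10.3%. Without AL replicate 1 the EOD count was 19, beside 3357 of 17005 genes. For IF16 the smallest p was that of D930016D06Rik. Its IF16 values of 6.61, 5.81, 7.56, 6.71 and 6.53 FPKM were mostly above its AL values of 6.13, 5.65, 5.58, 5.28 and 5.08 FPKM. After refeeding, IF16-R was at 5.72, 5.51, 5.97, 5.98 and 5.51 FPKM and AL-R at 6.33, 5.62, 6.48, 6.33 and 5.97 FPKM, mostly the other way round. The interaction was -0.33 (SE 0.09) on the log2 scale with an adjusted p of 0.347 in edgeR. For EOD the smallest p was that of D230017M19Rik, with an interaction of 0.46 (SE 0.13, adjusted p = 0.299 in edgeR). It was below AL in EOD, as given above, while EOD-R, at 3.20, 3.46, 3.23, 3.19 and 3.80 FPKM, overlapped AL-R, at 3.69, 2.72, 3.49, 2.96 and 3.04 FPKM.

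The microRNA hosts, considered as a group, gave no called member in these 8 comparisons with all libraries and no block in the fit. With the replicate block, 6720427I07Rik was called in IF16-R against AL-R (log2 fold change -0.33, adjusted p = 0.043 in edgeR). Without IF16-R replicate 1, Gm3764 and 6720427I07Rik were called there, as given above. The median log2 fold change of the hosts was 0.12 in IF16 against AL and -0.12 in IF16-R against AL-R, beside 0.01 and -0.08 for all members. The largest estimate among the hosts was that of Gm27028, the miR-30c host, at 0.69 in IF16 against AL (SE 0.26, adjusted p = 0.419 in edgeR). The 7 small nucleolar RNA hosts, counting 2810008D09Rik, had medians of 0.04, -0.13 and -0.21 in the 3 comparisons at the end of the regimens, in the order IF16 against AL, EOD against AL and EOD against IF16, beside 0.01, -0.06 and -0.11 for all members. After refeeding their medians were -0.17, 0.00 and 0.17 in IF16-R against AL-R, EOD-R against AL-R and EOD-R against IF16-R, beside -0.08, -0.04 and 0.03. No estimate of theirs passed the test.

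The control groups of the tables, AL-R against AL, differ in age by 2 months and also in collection and table, which cannot be told apart. edgeR called 33 of the 208 members (14 higher and 19 lower in AL-R), which is 15.9% beside 23.9% of all 16877 genes tested. The members' median absolute log2 fold change was 0.20, against 0.18 for all genes, so the smaller share does not mean smaller differences. Their median level in that fit was 4.79 CPM against 18.8, and their median biological coefficient of variation 13.6% against 10.7%. The part of this precision in the share of calls was not tested. At an unadjusted p under 0.05 there were 57 members, 26 higher and 31 lower, beside 40% of all genes. DESeq2 called 35 members, beside 27.9% of all genes. Libraries did not overlap for 13 members, 5 higher and 8 lower, beside 9.72% of all genes. The number of calls moved with the covariates, for members and for all genes. With the length gradient edgeR called 1 member, Gm10687, beside 223 of 16877 genes. With the choroid plexus markers as a covariate it called 11, beside 1194. A fit of the 2 groups alone called 0 members, beside 28 of 16313 genes. Without AL replicate 4, whose gradient was the lowest at -0.187, 6 members were called, beside 830 of 17008 genes. Without AL replicate 5 there were 9, beside 1250 of 17034, and without AL-R replicate 2 there were 17, beside 2111 of 17009. Without AL-R replicate 3 there were 19, beside 2303 of 17038, and without AL replicate 1 there were 55, beside 6173 of 17005.

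Markers of several cell types moved in the same comparison. Oligodendrocyte markers, such as myelin genes, were called lower in AL-R for 5 of 10, with a mean of 7.48 to 7.87 log2 CPM in AL and 7.33 to 7.41 in AL-R. Microglia markers were lower for 4 of 10 and astrocyte markers for 2 of 10. Purkinje cell markers were higher for 4 of 10, at 8.39 to 8.49 log2 CPM in AL and 8.52 to 8.68 in AL-R, and granule cell markers were higher for 3 and lower for 1 of 10. Of the 5 brainstem markers tested 2 were lower and 1 higher, and 3 of 5 red blood cell markers were higher. Choroid plexus markers were called for 0 of 11, with a median log2 fold change of -1.44 and libraries from 0.52 to 4.73 log2 CPM in AL and from 0.43 to 4.34 in AL-R. With the length gradient as a covariate 1 Purkinje cell marker was called higher and 1 oligodendrocyte, 1 astrocyte and 1 forebrain marker lower. The part of these cell types in the members' values was not tested.

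Among the called members that were higher in AL-R, Gm15906 had the largest estimate. It was at 3.29, 3.20, 2.51, 1.64 and 1.56 FPKM in AL and between 3.96 and 5.04 FPKM in AL-R, with no overlap. Its estimate was a log2 fold change of 0.92 (SE 0.20, adjusted p = 0.00553 in edgeR). Gm26798 (0.69), Gm17275 (0.64), RP23-402K24.5 (0.62) and Gm26964 (0.57) were of the same direction. Malat1 was at 76.7, 50.9, 50.8, 27.4 and 41.2 FPKM in AL and at 84.3, 78.6, 85.1, 73.0 and 55.6 FPKM in AL-R. Its groups overlapped, and its log2 fold change was 0.60 (SE 0.18, adjusted p = 0.0194 in edgeR). With the length gradient as a covariate it was 0.30 (adjusted p = 0.433), and with the choroid plexus markers the adjusted p was 0.054. The lowest Malat1 values were those of AL replicates 4 and 5, the libraries with the lowest length gradients of their group, -0.187 and -0.137.

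Among those lower in AL-R, RP24-540G19.3 had the largest estimate, -0.89 (adjusted p = 0.0328 in edgeR). 6330403K07Rik was at 44.5, 22.0, 28.5, 57.2 and 33.9 FPKM in AL and at 22.6, 21.8, 21.9, 24.3 and 22.4 FPKM in AL-R. The AL-R values were tight and lay at the bottom of a wide AL range, for a log2 fold change of -0.73 (SE 0.15, adjusted p = 0.00436). E530001K10Rik, the miR-670 host, was at 16.0, 14.7, 12.3, 17.7 and 20.4 FPKM in AL and 11.9, 8.27, 9.91, 12.8 and 13.0 FPKM in AL-R (log2 fold change -0.55, adjusted p = 0.022). Rmst, the miR-135a host, had the same log2 fold change of -0.55 with an adjusted p of 0.0192. Gm3294 (-0.49) and Pou3f3os (-0.47) completed the 6 lowest.

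Of the most abundant members, Lhx1os was called lower in AL-R (-0.31, adjusted p = 0.0464) and 1700020I14Rik higher (0.27, adjusted p = 0.0399). With the length gradient as a covariate these estimates were 0.04 and 0.01, so that of Lhx1os turned its sign. The coding neighbours were tested in the same fit: Lhx1 was at 0.21 (adjusted p = 0.0487), Setd1b at 0.60 (0.0154), Kcnma1 at 0.85 (0.0162) and Atp2b2 at 0.34 (0.0209), while Cbln1 was at -0.19 (0.129). With the covariate they were at 0.03, 0.17, 0.19, 0.04 and 0.02 in the same order, and none was called. Lhx1 and Lhx1os, which start 125 bases apart, thus had estimates of opposite sign without the covariate. With it they were at 0.03 and 0.04, with adjusted p-values of 0.889 and 0.817 in edgeR, so neither sign could be told. Gm15083, which overlaps Atp2b2, was at -0.38, and at -0.15 with the covariate. By locus class, 1 of the 11 members on the strand of a coding gene, 6 of the 41 on the other strand, 15 of the 85 nearby and 11 of the 71 distant ones were called. These shares, 9.09%, 14.6%, 17.6% and 15.5%, lay below the 23.9% of all genes, as did the 15.9% of all members. The limit of precision given above holds for them too.

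**Figure D5:**
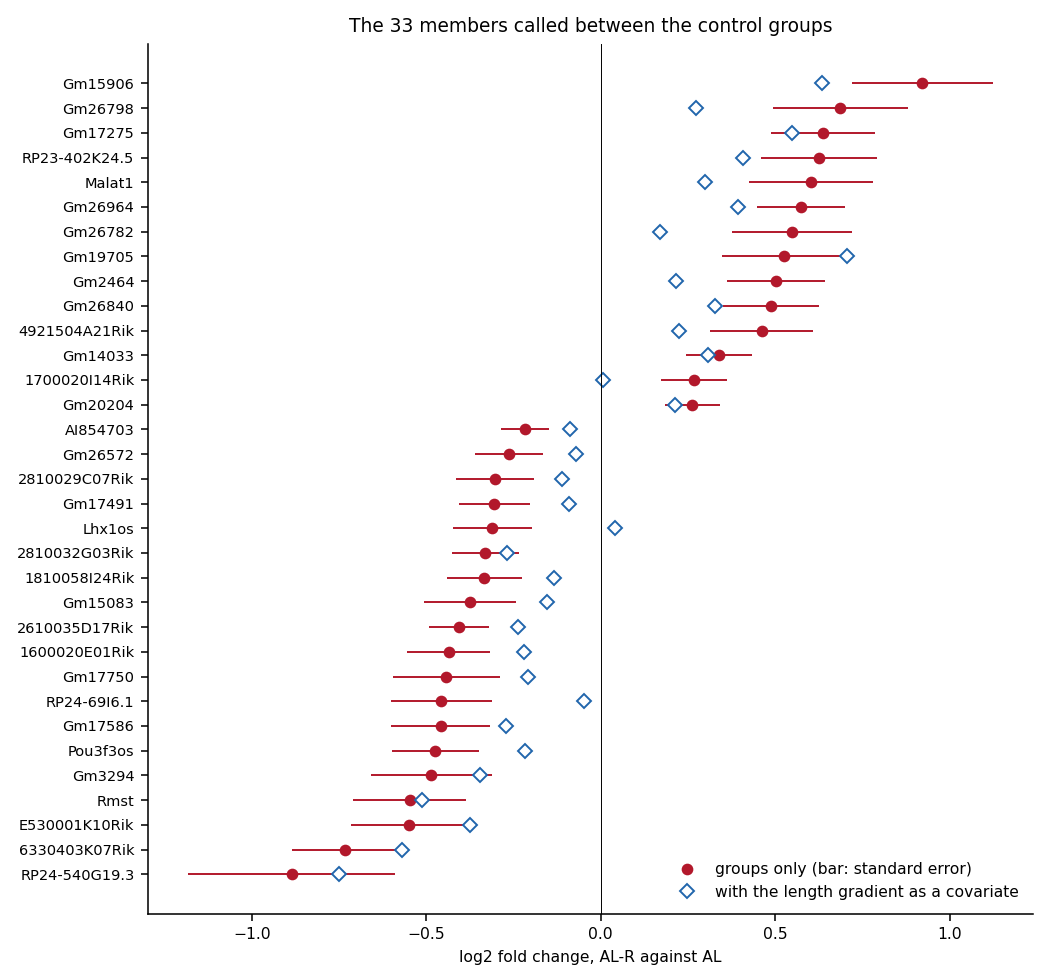
Log2 fold change of AL-R against AL for the 33 called members (red points with the standard error) and the same estimate with the length gradient as a covariate (blue diamonds). Malat1 stands at 0.60 with its diamond at 0.30, and the diamonds of Lhx1os and 1700020I14Rik lie at 0.04 and 0.01.

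Genes of the machinery that handles nuclear noncoding RNA were examined for the same contrasts. The lists held 15 paraspeckle proteins, 18 speckle and splicing proteins, 19 nuclear RNA decay factors, of which 18 were found, and 14 Integrator subunits. None was called in the 6 comparisons within a table or in the interactions. In IF16 against AL the median log2 fold change was 0.12 for the paraspeckle list and 0.10 for the speckle list, and in EOD against AL 0.11 and 0.05, with all genes at -0.01 and -0.02. In AL-R against AL, where 11.5% of all genes were called higher and 12.4% lower, 3 paraspeckle genes were higher (Tardbp, Cpsf6 and Nudt21) and 0 lower, and 3 speckle genes were higher (Srsf4, Son and Srrm1) and 0 lower. Of the decay factors 2 were higher (Dis3 and Papd5) and 3 lower (Exosc4, Exosc5 and Exosc7), and of the Integrator subunits 1 was higher (Ints6). The called shares of these lists, 20%, 16.7%, 27.8% and 7.14%, lay near or under the 23.9% of all genes. Son, a scaffold of the speckles that hold Malat1, was at 0.36 (SE 0.12, adjusted p = 0.0298 in edgeR), and Dis3, the catalytic subunit of the RNA exosome, at 0.48 (SE 0.11, adjusted p = 0.00722). With the length gradient as a covariate, 223 of the 16877 genes were called in that comparison, and 0 genes of these 4 lists.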

How the data were processed

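RNA-seq of 30 mouse cerebellum libraries was analysed, in 6 groups of 5 taken from the labels; 12 chromatin samples were not analysed here. The authors deposited raw counts, in a table of the regimens and another of refeeding, and FPKM for each library. Per the submitters' processing notes, STAR 2.5, HTSeq 0.6.1, DESeq2 2 and mm10 were used; library selection, use of strand and annotation release are not given in the sources used here. The deposited FPKM equal counts over gene length and library total (largest relative difference 4.97e-12), so they carry no normalization between libraries.

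Counts were tested with edgeR 4.0.16 (quasi-likelihood, TMM, filterByExpr by group) in R 4.3.3, with 1 fit per table and 1 of all 30 libraries for AL-R against AL and the interactions. P-values were adjusted by Benjamini-Hochberg over all genes tested, and calls needed an adjusted p under 0.05. Shares called by DESeq2 are over the genes to which it gave an adjusted p, and any member without such a value counts as not called. Standard errors came from the F statistic. The procedure was tested on simulated data. All 208 members passed the filter in each fit. Alternatives were DESeq2 1.42.0, RLE factors, no filter, a replicate block, only the groups compared, the length gradient or choroid plexus markers (log2 CPM, prior count 2) as a covariate, each library left out, and thresholds of 0.5 or 2 FPKM. Total counts ran from 26799825 to 36167435 per library, and the spread between libraries sets the precision.

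Positions are those of the deposited tables. Neighbouring coding genes, with their overlaps and distances, were also taken from the deposited tables. Sequences come from RefSeq (GRCm38.p6) and gene names from a table that held 189 members. Members and lists were chosen with earlier results of these data known. Named by rule were the 15 most abundant members, the member with the smallest p in each direction of each comparison, the 6 highest and 6 lowest called in AL-R against AL, those at the threshold, known lincRNAs by symbol, and the 5 with the largest spread within groups: RP24-540G19.3, Miat, Gm27030, 4831440E17Rik and RP23-190H11.5. MicroRNA hosts and motif holders were singled out by position and sequence.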

Additional observations from a re-analysis of the deposited data

Results flagged for a closer look

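In 294 groups of 5 libraries, most of them from the 48 members named by the rule, a library far from the other 4 was sought. Dixon's criterion at the 95% level was used, and 15 were found, all in named members. By chance about 1 in 20 groups is flagged. Values are FPKM.

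Among the abundant members, Malat1 was at 76.3 in EOD-R replicate 1 while the other 4 lay between 59.6 and 63.1. Gm27032 was at 24.7 in EOD-R replicate 4, below 32.1 to 34.7, and RP24-69I6.1 was at 36.2 in IF16 replicate 1, above 25.7 to 27. Miat, the nuclear lncRNA of neurons, was at 5.44 in AL replicate 1, above 1.20 to 2.14.

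The small nucleolar RNA hosts Snhg1 and Snhg4 were low in the same library, EOD replicate 4: Snhg1 at 3.32, below 5.96 to 6.79, and Snhg4 at 1.61, below 2.07 to 2.12. That library also had the highest length gradient of its table, 0.139, and the part of the gradient in these values was not tested.

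Of the members with the smallest p-values, RP23-392G15.1 was at 3.02 in IF16 replicate 1, above 1.94 to 2.09. C030037D09Rik was at 2.80 in AL replicate 2, above 2.58 to 2.64, and at 3.02 in IF16-R replicate 1, above 2.46 to 2.59. In AL-R replicate 2, 2310069G16Rik was at 2.05, above 1.66 to 1.75, 2810032G03Rik at 2.75, above 2.43 to 2.49, and Gm3294 at 4.13, below 4.88 to 5.15. Gm26964 was at 5.57 in AL-R replicate 1, above 4.43 to 4.68. Gm15906 was at 3.96 in AL-R replicate 5, below 4.76 to 5.04, and at 5.29 in EOD-R replicate 1, above 3.20 to 3.80.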

How the results depend on the processing

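Of the recounts of called members under alternatives, 175 stayed within 1.5 times the count reported and 16 did not. In every comparison but AL-R against AL the count reported was 0, and a recount of 0 was put among those that stayed. Most of the 175 are of that kind and say little about stability. Of the estimates of named members, 1 that had passed the test turned its sign (Lhx1os in AL-R against AL, 0.0414 with the length gradient covariate). A further 9 passed the test anew, 105 lost it and 588 kept their side. In IF16 against AL, DESeq2 called 1 member and the length gradient covariate 1, in place of 0. In EOD against AL, DESeq2 called 1. In IF16-R against AL-R, DESeq2 called 1, leaving out a library gave 0 to 6 (6 without IF16-R replicate 1), and the replicate block gave 4, beside 95 of all genes (Fam120aos, Gm15906, 6720427I07Rik and Gm14827). In EOD-R against AL-R, DESeq2 called 1 and the replicate block 2, beside 45 of all genes (Gm15083 and Miat). Same-numbered libraries correlated above 0.1 in 4 of 15 pairs at the end of the regimens, where 0 libraries were closest to their own number. After refeeding 12 of 15 pairs did so, and 8 of 15 libraries were closest to their own number. The median correlation there was 0.149, against -0.061 for other pairs. The replicate numbers thus went with shared variation after refeeding, though not in every pair, and what they stand for is not given. In AL-R against AL, in place of 33 members, the choroid plexus covariate called 11, the length gradient covariate 1, the fit of the 2 groups alone 0, and leaving out a library 6 to 55; the cause was not tested. Counts over all genes also moved: 3 to 94 in IF16 against AL (8 reported), 2 to 130 in EOD against AL (11), 0 to 106 in IF16-R against AL-R (28), 0 to 77 in EOD-R against AL-R (7), 0 to 119 in EOD-R against IF16-R (3), 4 to 36 and 0 to 15 in the interactions for IF16 (8) and EOD (2), and 28 to 6173 in AL-R against AL (4030). Low counts limit the precision of the lowest members: the median member had 4.79 CPM at the end of the regimens against 19.7 for all genes tested.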

Other observations

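The members with the steadiest and the widest ranges are named here after their values were seen. Tunar, a lncRNA known for its part in neural differentiation of stem cells, was at 16.8 FPKM (chr12:105336594-105383932, plus strand), lay 69924 bases from its nearest coding gene, and had the narrowest range of all 208 members, 14.5 to 18.7 FPKM over the 30 libraries. Its standard error in IF16 against AL, 0.06 on the log2 scale, was the smallest of the members, and its log2 fold changes were -0.03 there (adjusted p = 0.867 in edgeR) and 0.00 in EOD against AL (adjusted p = 0.988). RP24-540G19.3, on chromosome Y, ran from 0.921 to 6.89 FPKM, and Gm27030 from 0.450 to 2.29 FPKM. 4831440E17Rik ran from 0.630 to 2.30 FPKM and RP23-190H11.5 from 0.531 to 2.04 FPKM.

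Members on the X chromosome included lncRNAs known from X inactivation. Ftx (chrX:103560907-103623754, minus strand), which also hosts miR-421 and miR-374b, was at 6.88 ± 0.65 FPKM in the AL group (SD, n = 5), at 7.51 ± 1.11 with the daily fast and at 6.80 ± 0.94 with the alternate-day fast. After refeeding the corresponding groups were at 7.58 ± 0.95, 6.43 ± 0.91 and 6.61 ± 0.41 FPKM. Jpx (chrX:103493558-103506425, plus strand), an activator of Xist, had a mean of 1.33 FPKM and ran from 0.976 to 1.74 FPKM. Neither passed edgeR's test in any of the 9 comparisons: the adjusted p-values of Ftx ran from 0.32 to 0.977 and those of Jpx from 0.308 to 0.98.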
